A study of Mus musculus with 12 samples.

Results

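Messenger RNA from 87 cytosolic ribosomal protein genes was measured in mouse breast tumours treated with Fc-fused nanobodies, which are single-domain antibodies joined to an antibody tail. The members were every gene whose symbol follows the Rpl or Rps number pattern, plus Rplp0, Rplp1, Rplp2 and Rpsa. They made up 87 of the 41009 genes in the deposited table, with 52 named for the large and 35 for the small ribosomal subunit. The rows Rpl6l, Rpl32l, Rps3a2, Rps3a3 and Rps4l had no protein-coding transcript in the GENCODE mouse annotation. These rows may therefore not encode a ribosomal protein. All 87 passed the filter on low values (at least 1 FPKM in at least 3 of the 12 libraries), which 14306 genes passed. FPKM is fragments scaled for transcript length and for the size of the library, so levels of different genes can be set side by side. The rows Rpl3l and Rpl39l passed through few libraries.

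The tumours grew from 4T1 cells, a BALB/c mammary carcinoma line, here carrying mCherry and implanted orthotopically into female BALB/c mice aged 4 to 5 weeks, in the mammary fat pad. From day 7, 4 groups were treated by intraperitoneal injection, with 3 libraries in each group. Ctrl received Ctrl-Fc at 5 mg/kg, the second group VHH-OD-Fc at 3.5 mg/kg, the third VHH-PD-1-Fc at 2.6 mg/kg, and the fourth VHH-OD-PD-1-Fc at 4.3 mg/kg. The last carries both nanobody arms and is called the dual construct here. T cells carry PD-1 as a brake on their activity, and the series title names endogenous digoxin-like substances as the other target. All mice therefore carried the same tumour and received an Fc protein, and no untreated tumour was analysed here. Whether each library is a different animal is not stated, so the p-values rest on library-to-library spread that may be only technical. Doses differed between constructs. No batch is labelled, and if the libraries with the PD-1 arm were made apart, an unlabelled batch cannot be told apart from the effect of that arm.

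The ribosome is built from ribosomal RNA and one copy of nearly every ribosomal protein, and cells keep the proteins in balance by making them at similar rates and degrading the excess. Mammalian ribosomal protein mRNAs begin with a run of pyrimidines, the 5′ terminal oligopyrimidine (TOP) tract, through which mTORC1 and LARP1 set how strongly they are translated. The genes have left many processed pseudogenes across the genome, so short reads from a member can also match its copies.

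Pyrimidine runs at the start site were looked for in RefSeq sequence. In promoters of GRCm38.p6, which were found for 63 of the 87 members, a run of at least 8 C or T within 10 bases of the start site stood in 28 promoters, or 44.4%. The same run stood in 13.5% of all 27025 promoters. Shorter runs were left out and the annotated start may be off, so this is not a count of TOP tracts. Windows of 50 bases, from 30 before to 20 after the start, are printed here 5′ to 3′ on the gene's strand for genes whose levels are described further on. The capitals mark the longest pyrimidine run near the start. Rpl27a, Rpl35, Rps27 and Rps6 were higher under the PD-1 arm and have tracts, Rpl39 rose most under VHH-PD-1-Fc, Rpl7a and Rps10 did not pass the test, and Rpl39l is the tissue-restricted paralog of Rpl39.
Rpl27a (chr7:109519165-109519214, plus strand): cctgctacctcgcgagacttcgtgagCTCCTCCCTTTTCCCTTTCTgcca
Rpl35 (chr2:39005112-39005161, minus strand): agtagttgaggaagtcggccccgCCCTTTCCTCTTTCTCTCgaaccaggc
Rps27 (chr3:90213629-90213678, minus strand): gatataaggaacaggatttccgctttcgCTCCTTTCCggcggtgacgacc
Rps6 (chr4:86857348-86857397, minus strand): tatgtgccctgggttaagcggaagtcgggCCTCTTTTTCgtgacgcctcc
Rpl39 (chrX:37085203-37085252, minus strand): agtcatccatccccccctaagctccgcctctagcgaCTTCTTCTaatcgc
Rpl7a (chr2:26910777-26910826, plus strand): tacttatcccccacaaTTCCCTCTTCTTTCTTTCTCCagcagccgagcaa
Rps10 (chr17:27635225-27635274, minus strand): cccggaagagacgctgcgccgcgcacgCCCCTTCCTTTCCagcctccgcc
Rpl39l (chr16:10170198-10170247, plus strand): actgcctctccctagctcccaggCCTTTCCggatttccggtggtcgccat

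Other short motifs, searched on both strands of the whole 300-base promoter (250 before and 50 after the start), differed in how often they occurred. The ETS core CCGGAAG stood in 39.7% of the members' promoters and 9.12% of all promoters. The YY1 core AAGATGGC stood in 7.94% against 2.88%, and the GC box GGGCGG in 58.7% against 35.9%. The E-box CACGTG, which MYC family proteins can bind, stood in 7.94% against 7.24%. The NRF1 core GCGCATGC stood in 3.18% against 2.81%, and TATAAA in 11.1% against 14.2%. These are letter matches and not measured binding.

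In the tumours, the members took a larger part of the transcript pool wherever the PD-1 arm was present. Their share of the summed FPKM was 8.98%, 9.82% and 9.76% in the Ctrl libraries and 10.3%, 10.9% and 9.87% in the VHH-OD-Fc libraries. It was 15.2%, 16.9% and 14.5% under VHH-PD-1-Fc, and 14.1%, 13.8% and 13.8% under the dual construct. All 6 libraries with the PD-1 arm lay above all 6 without it, and the VHH-OD-Fc and Ctrl libraries lay close together without overlap. The means were 9.52% ± 0.47 (SD, n = 3), 10.4% ± 0.53, 15.5% ± 1.24 and 13.9% ± 0.19 in the same order. In bulk tissue, fewer cells of a type and less RNA per cell cannot be told apart, and a share says nothing of the absolute amount of ribosomal protein mRNA.

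The rise was shared by both subunits. The summed FPKM of the large subunit genes was 1.28 to 1.42 times that of the small subunit genes over the 12 libraries. The summed FPKM of all genes ranged from 327792 to 345596 in the 6 libraries lacking the PD-1 arm and from 388142 to 401179 in the other 6, so FPKM totals were themselves higher there. Rows named as ribosomal protein pseudogenes took between 1.82% and 2.18% of the FPKM where the PD-1 arm was absent, and between 2.83% and 3.56% where it was present.

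**Figure D1:**
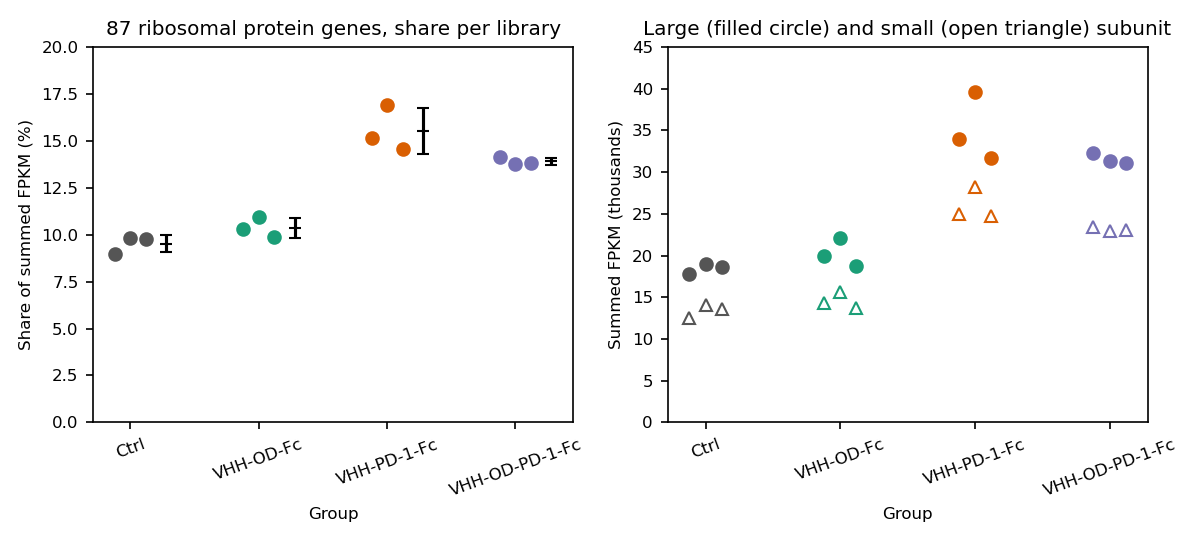
Left, share of each library's summed FPKM in the 87 ribosomal protein genes (percent), by treatment group, 1 point per library with the group mean and SD beside it. Right, summed FPKM for large (filled circles) and small (open triangles) subunit genes. The libraries with the PD-1 arm sit between 13.8% and 16.9% and those without it between 8.98% and 10.9%.

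Marker transcripts of other cell types also differed between groups. Summed FPKM of 6 fibroblast markers was 558 to 790 in Ctrl, 665 to 1082 under VHH-OD-Fc, 215 to 450 under VHH-PD-1-Fc and 535 to 539 under the dual construct. By limma, 5 of 6 were called lower under VHH-PD-1-Fc, where 32.3% of all genes were called lower. Under the dual construct 1 of 6 was, where 27.1% of all genes were. The sum of 3 endothelial markers was 17.8 to 24.2, 21.2 to 27.9, 9.19 to 10.6 and 9.8 to 12.2, so it was lower in all 6 libraries with the PD-1 arm, and 3 of 3 were called lower under both constructs. The 6 tumour epithelial markers summed to 1131 to 2490, 2119 to 2242, 1795 to 3474 and 2427 to 2486. The groups overlapped, except that the dual-construct libraries lay above all VHH-OD-Fc libraries. The 6 T cell markers summed to 14.0 to 26.0, 7.43 to 12.7, 6.73 to 17.0 and 7.97 to 9.25. The 6 macrophage markers summed to 804 to 1460, 735 to 976, 1019 to 2931 and 1297 to 1317, and the 5 neutrophil markers to 620 to 911, 456 to 1861, 398 to 1200 and 1895 to 1952. B cell markers summed to 1.53 to 29.9, 1.58 to 10.6, 1.31 to 4.97 and 0.343 to 0.848 FPKM in the same order of groups, and adipocyte markers to 26.8 to 118, 75.8 to 279, 2.37 to 45.5 and 20.6 to 24.4. Skeletal muscle markers summed to 8.1 to 250, 12.7 to 1987, 5.37 to 30.6 and 172 to 174 FPKM, and erythroid markers to 90.8 to 236, 137 to 716, 78.1 to 187 and 203 to 208. The B cell sums under the dual construct lay below those of all other groups, and no marker of any list was at 0 in all libraries. Whether a change in cell make-up had a part in the rise of ribosomal protein mRNA was not tested.

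VHH-PD-1-Fc against Ctrl addressed what the PD-1 arm did alone. Of the 87 ribosomal protein genes, 75 were called higher and 2 lower by limma (Benjamini-Hochberg adjusted p under 0.05 over all genes tested, on log2(FPKM + 1), n = 3 per group). Among all 14306 genes tested, 14.6% were called higher and 32.3% lower. The median log2 fold change was 0.89 over the members, with quartiles of 0.53 and 1.07, and −0.19 over all genes. In 75 members every VHH-PD-1-Fc library lay above every Ctrl library, against 15.5% of all genes, and in 2 every library lay below, against 33.7%. Large subunit genes were called higher in 44 of 52 cases (median 0.84, with 1 lower) and small subunit genes in 31 of 35 (median 0.96, with 1 lower). Under quantile normalization, which forces the same distribution on every library, 53 members were called higher and the median was 0.41. The main fit shared 1 estimate of the spread over all 12 libraries, including the dual-construct libraries, which varied least. With only the Ctrl and VHH-PD-1-Fc libraries in the fit, 67 members were called, all higher, and neither of the lower calls remained.

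The most abundant members rose together. Rplp1, a protein of the acidic stalk that recruits elongation factors, had 2651, 2595 and 2492 FPKM in Ctrl and 2678, 3246 and 2559 under VHH-OD-Fc. It had 6385, 7656 and 5285 FPKM under VHH-PD-1-Fc, and 5235, 5122 and 5126 under the dual construct. The lowest library with the PD-1 arm was well above the highest without it. The log2 fold change was 1.30 for VHH-PD-1-Fc (limma adjusted p = 9.05e-05), and under the dual construct the mean was 2.0 times that of Ctrl (0.000351). Rps15, a small subunit protein with the second highest mean level, read 1585, 1632 and 1611 FPKM in Ctrl, 1725, 2016 and 1529 under VHH-OD-Fc, 3198, 3750 and 3067 under VHH-PD-1-Fc and 2960, 2748 and 2841 under the dual construct. Its groups with and without the PD-1 arm did not overlap, with log2 fold changes of 1.05 and 0.82.

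Rpsa, a small subunit protein also known as the laminin receptor, read 908, 1029 and 1025 FPKM in Ctrl, 1142, 1160 and 1008 under VHH-OD-Fc, 2176, 2548 and 1927 under VHH-PD-1-Fc and 1806, 1795 and 1761 under the dual construct. Rps4x, encoded on the X chromosome, read 816, 1029 and 967 FPKM in Ctrl, 1091, 1023 and 1019 under VHH-OD-Fc, 1789, 1962 and 1866 under VHH-PD-1-Fc and 1550, 1533 and 1528 under the dual construct. The log2 fold changes of Rpsa were 1.16 (limma adjusted p = 6.61e-05) and 0.86 (0.000296). The mean of Rps4x under VHH-PD-1-Fc was 2.0 times that of Ctrl (limma adjusted p = 6.61e-05), and its log2 fold change under the dual construct was 0.72 (0.00034). For both genes the dual-construct libraries lay between the Ctrl and the VHH-PD-1-Fc libraries. Rps3a1, a small subunit protein near the mRNA exit, rose less. It read 1117, 1499 and 1269 FPKM in Ctrl, 1947, 1658 and 2012 under VHH-PD-1-Fc and 1552, 1568 and 1523 under the dual construct. Its log2 fold change was 0.54 ± 0.12 (SE; limma adjusted p = 0.00483) for VHH-PD-1-Fc and 0.27 (0.0991) for the dual construct. The first of these was no longer called after each library was rescaled to the same total (TPM; adjusted p = 0.0611), and it turned to −0.11 under quantile normalization.

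Rpl39 rose furthest under VHH-PD-1-Fc. It encodes a very small, basic protein that lines the nascent peptide exit tunnel. Its level was 191, 196 and 182 FPKM in Ctrl, 193, 238 and 187 under VHH-OD-Fc, 585, 643 and 667 under VHH-PD-1-Fc, and 589.5, 588 and 608 under the dual construct. Libraries with and without the PD-1 arm were far apart. The log2 fold change was 1.73 ± 0.10 (limma adjusted p = 8.08e-06) for VHH-PD-1-Fc and 1.64 ± 0.10 (1.09e-05) for the dual construct.

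Several small subunit proteins followed. Rps20, a protein of the subunit head, read 126, 149 and 143 FPKM in Ctrl, 169, 170.4 and 141 under VHH-OD-Fc, 347, 419.8 and 370.3 under VHH-PD-1-Fc and 394, 389 and 389 under the dual construct. Its log2 fold changes of 1.44 ± 0.11 (limma adjusted p = 2.2e-05) and 1.48 (1.82e-05) were of similar size under both constructs. Rps29, a short zinc-binding protein, had 373, 421 and 458 FPKM in Ctrl, 387, 613 and 415 under VHH-OD-Fc, 950.4, 1349 and 1199 under VHH-PD-1-Fc and 983, 906 and 978 under the dual construct. Its second VHH-OD-Fc library stood above the others of that group, but below every library with the PD-1 arm. The log2 fold changes were 1.47 ± 0.18 (limma adjusted p = 0.00018) and 1.20 (0.000563).

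Rps21 and Rps27 showed the same order of groups. Rps21, a small subunit protein needed for late maturation of its subunit's RNA, read 247, 246 and 277 FPKM in Ctrl, 646, 743 and 647 under VHH-PD-1-Fc and 521, 525 and 527 under the dual construct. Rps27, a zinc finger protein of the small subunit, read 325, 412 and 365 FPKM in Ctrl, 880.3, 869 and 991 under VHH-PD-1-Fc and 799, 748 and 766 under the dual construct. In both, no library with the PD-1 arm overlapped Ctrl, and the dual-construct libraries lay below the VHH-PD-1-Fc ones. The log2 fold changes under VHH-PD-1-Fc were 1.40 ± 0.12 (limma adjusted p = 4.05e-05) for Rps21 and 1.32 ± 0.11 (3.8e-05) for Rps27. Rps15a, a universally conserved protein of the small subunit, read 69.5, 76.6 and 72.9 FPKM in Ctrl and 166, 157 and 182 under VHH-PD-1-Fc. It read 171, 163 and 167 FPKM under the dual construct, a log2 fold change of 1.18 (2.58e-05), and did not overlap Ctrl.

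Large subunit genes with large changes included Rpl17 and Rpl36a. Rpl36a, on the X chromosome, read 144, 157 and 160.5 FPKM in Ctrl, 331, 377 and 445 under VHH-PD-1-Fc and 374, 359 and 366 under the dual construct, and its log2 fold change for the latter was 1.25 (limma adjusted p = 6.56e-05).

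Rpl17, which sits near the exit of the peptide tunnel, was also the member of smallest p under VHH-OD-Fc. It read 362, 309 and 202 FPKM in Ctrl, 489, 657 and 414 under VHH-OD-Fc, 732, 677 and 918 under VHH-PD-1-Fc and 1021, 841 and 570.4 under the dual construct. Every treated library exceeded every Ctrl library in this row, and the spread within groups was wide. The copy row Rpl17-ps10 had a higher mean than the Rpl17 row. Summed over Rpl17 and its copies, the levels were 1084, 1253 and 1398 FPKM in Ctrl and 1342, 1648 and 1148 under VHH-OD-Fc, which overlapped. The ratio of these group means was 1.107 for VHH-OD-Fc, 2.201 for VHH-PD-1-Fc and 2.086 for the dual construct. The log2 fold change of the Rpl17 row was 0.85 ± 0.26 for VHH-OD-Fc (limma adjusted p = 1), 1.44 ± 0.26 (0.00149) for VHH-PD-1-Fc and 1.48 (0.0015) for the dual construct.

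**Figure D2:**
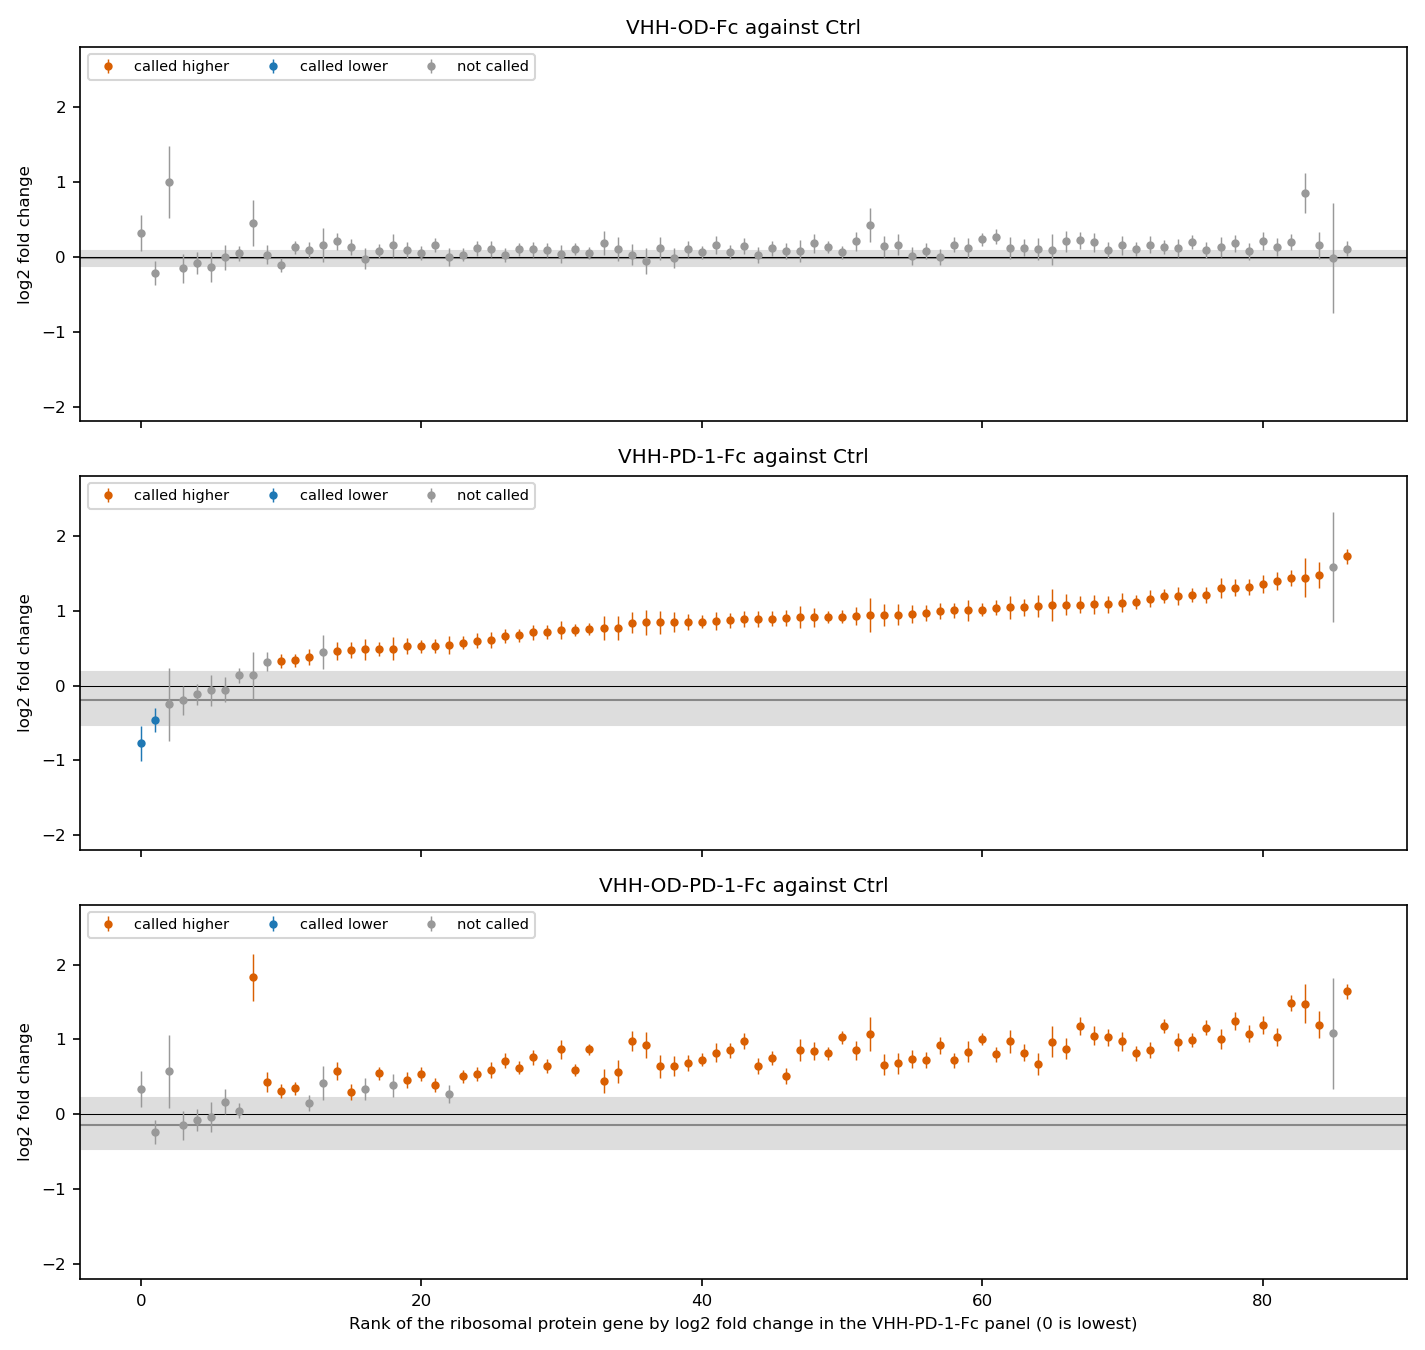
Log2 fold change of each of the 87 members with its SE, for 3 comparisons with Ctrl, with the genes in the same order in each panel (ranked by the VHH-PD-1-Fc fold change). Orange points were called higher, blue lower and grey not called; the grey line and band are the median and quartiles of all genes tested. Under VHH-PD-1-Fc 75 members are orange and 2 blue, under VHH-OD-PD-1-Fc 73 are orange, and under VHH-OD-Fc all are grey.

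Only 2 members were called lower in VHH-PD-1-Fc tumours, and the first of them, Rps4l, had no annotated protein-coding transcript. Rps4l, a paralog of Rps4x, read 3.77, 3.62 and 3.87 FPKM in Ctrl, 4.56, 5.82 and 4.44 under VHH-OD-Fc, 0.755, 3.04 and 2.05 under VHH-PD-1-Fc and 4.60, 5.51 and 4.95 under the dual construct. All VHH-PD-1-Fc libraries were below all others, and the log2 fold change was −0.77 ± 0.24 (limma adjusted p = 0.021). The call was lost, among other settings, without the third Ctrl library (0.0559), with median-of-ratios scaling (0.0743) and with quantile normalization (0.133). For the dual construct it was 0.34 ± 0.24 (0.27), and against VHH-OD-Fc the VHH-PD-1-Fc libraries were lower (−1.09, 0.00439).

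Rpl29, a heparin-binding large subunit protein, read 7.27, 5.11 and 4.62 FPKM in Ctrl, 3.98, 4.30 and 3.13 under VHH-PD-1-Fc and 3.93, 4.61 and 5.23 under the dual construct. The first Ctrl library stood above the rest. The log2 fold change was −0.46 ± 0.16 (limma adjusted p = 0.0331) under VHH-PD-1-Fc. Among other settings, it was no longer called without that Ctrl library (0.121), without the third VHH-PD-1-Fc library (0.101) or with median-of-ratios scaling (0.185). For the dual construct it was −0.24 (0.238), and was called after rescaling to TPM (−0.48, 0.0328) and with the length and GC trend removed (−0.40, 0.034).

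A set of 8 members was called in neither comparison of a PD-1 arm with Ctrl, namely Rpl7a, Rpl9, Rpl21, Rpl24, Rpl30, Rpl3l, Rps10 and Rps27a. Rpl7a, a large subunit protein, read 418, 328 and 450.2 FPKM in Ctrl, 382, 401 and 358 under VHH-PD-1-Fc and 513, 505.5 and 338 under the dual construct, with full overlap and log2 fold changes of −0.06 ± 0.17 and 0.17. Rpl9 read 213, 230.4 and 235 FPKM in Ctrl, 285, 255 and 211 under VHH-PD-1-Fc and 237, 234 and 231 under the dual construct. Its log2 fold change under VHH-PD-1-Fc was 0.14 ± 0.10 (limma adjusted p = 0.296). Without the third VHH-PD-1-Fc library it was called higher (0.0247), and also with median-of-ratios scaling (0.0335).

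Rps27a encodes ubiquitin fused to a ribosomal protein. It read 313, 354 and 363 FPKM in Ctrl, 329, 549 and 562 under VHH-PD-1-Fc and 339, 602 and 469 under the dual construct, so the first library of each of these treated groups lay among the controls. Its log2 fold change under VHH-PD-1-Fc was 0.44 ± 0.22 (limma adjusted p = 0.122), and it was called without the first VHH-PD-1-Fc library (0.0138) or with median-of-ratios scaling (0.0389). Rps18, a protein of the subunit head, was higher without passing the test under VHH-PD-1-Fc, at 0.32 (0.0653).

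Several rows that were not called lay far below a near-identical copy. Near-identical copy here means any gene outside the members with a transcript that shares at least a stretch of 100 bases with the member. Rps10 had only 5.14, 3.83 and 3.29 FPKM in Ctrl, but the row named Rps10-ps2, a near-identical copy, had 395, 424 and 414 FPKM in Ctrl, 451, 458 and 411 under VHH-OD-Fc, 1003, 1056 and 934 under VHH-PD-1-Fc and 909.7, 892 and 911 under the dual construct. Summed over the Rps10 row and its 2 copy rows in the table, the level was 431 ± 12.3 FPKM in Ctrl (SD, n = 3) and 1044 ± 64.3 under VHH-PD-1-Fc, while the Rps10 row alone had a log2 fold change of −0.20 ± 0.19 (limma adjusted p = 0.419). The copy's libraries with and without the PD-1 arm did not overlap. These copies were chosen after their values were seen, and how reads matching several places were counted is not given in the sources used here.

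Rpl30, a large subunit protein, was another such row. Its row read 10.1, 31.9 and 9.14 FPKM in Ctrl, 9.20, 30.9 and 10.0 under VHH-OD-Fc, 67.9, 72.7 and 18.3 under VHH-PD-1-Fc and 57.2, 48.0 and 11.2 under the dual construct. The libraries of each group were spread over several fold, and the log2 fold change of 1.58 ± 0.74 was not called (limma adjusted p = 0.0985). It was called without the second Ctrl library (0.0495) or the third VHH-PD-1-Fc library (0.0354). The copy Gm12191 had 1146 to 1295 FPKM in Ctrl, 2891 to 3086 under VHH-PD-1-Fc and 2429 to 2519 under the dual construct, with no overlap between these 3 groups. The rows Rpl26 (15.6 FPKM on average over the 12 libraries), Rps2 (81.6), Rpl35a (22.3), Rpl21 (2.14) and Rpl24 (1.83) were likewise below their copies, which held 2603, 815, 216, 118 and 36.1 FPKM. Of these, Rpl26, Rps2 and Rpl35a were themselves called higher under VHH-PD-1-Fc. The Rps2 row read at most 57.7 FPKM without the PD-1 arm and at least 97.9 with it. Its copy Rps2-ps10 overlapped, at 639 to 716 FPKM in Ctrl and 532 to 983 under VHH-PD-1-Fc.

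When each member was summed with the rows of its near-identical copies, no sum was below Ctrl under the PD-1 arm. Of the members, 74 had such copies in the table, and in 18 the copies held more FPKM than the member. A shared stretch of 100 bases was enough to count, so some copies shared little. For Rpl39, 9 of 513 stretches were shared and the copy held 0.63 FPKM on average, so its sum is nearly the member alone. The copy row of Rplp2 was Wdr89. The summed level under VHH-PD-1-Fc, as a ratio of group means to Ctrl, was above 1 in 74 of 74 sums, from 1.10 for Rpl7a to 3.33 for Rpl39, with a median of 1.89. Under the dual construct it was above 1 in 74 of 74, from 1.03 for Rpl9 to 3.14 for Rpl39, with a median of 1.68. Under VHH-OD-Fc it was above 1 in 69 of 74, from 0.922 to 1.20, with a median of 1.08. The ratio under VHH-PD-1-Fc was 1.76 for the sum over Rpl29 and its copies, and 1.80 for Rpl21, 2.50 for Rpl24 and 2.43 for Rpl30. These sums were described and not tested, and a copy row can belong to more than one sum.

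**Figure D3:**
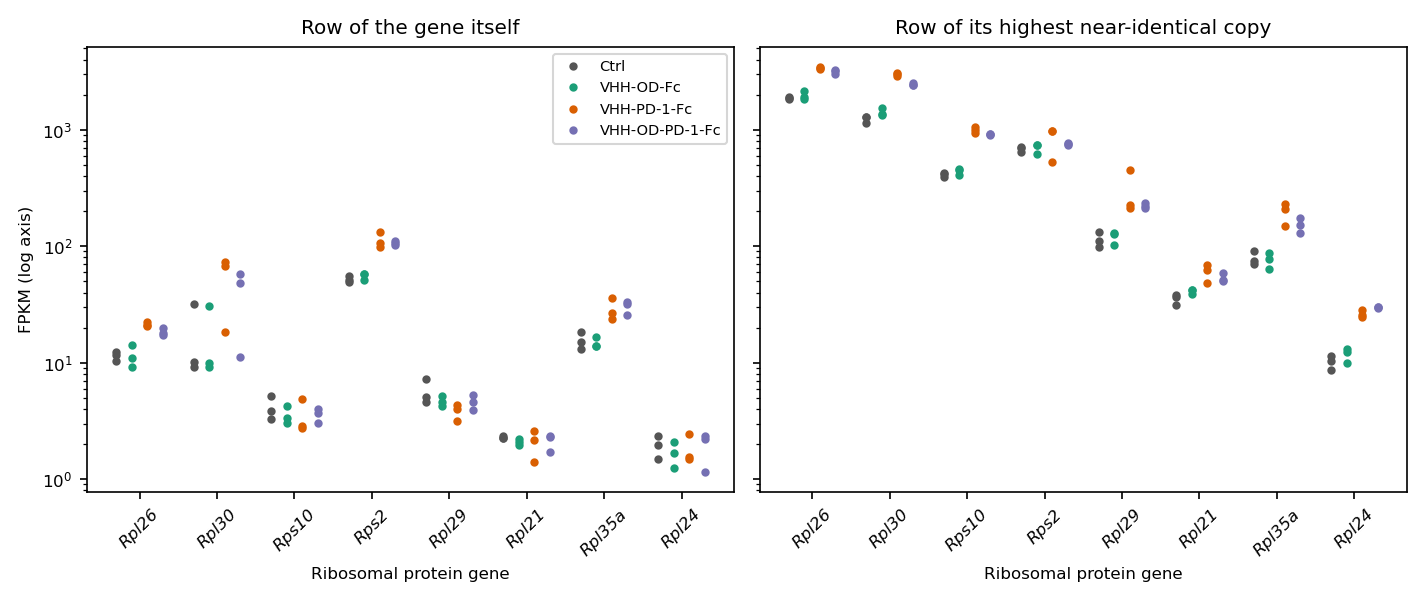
FPKM on a log axis for 8 members and, beside each, its most abundant near-identical copy, 1 point per library in the 4 treatment groups. The copies lie above the member rows, and in the Rps10 and Rpl30 pairs the copy separates libraries with and without the PD-1 arm while the member row does not. In the Rps2 pair the member row separates them and the copy does not.

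How much of a member's sequence was its own also went with the count of calls. A value was given only to members with a protein-coding transcript in the GENCODE mouse annotation. Of the 82 members with a value, 50 had at least 50% of their sequence unique among transcripts, and 47 of these were called higher under VHH-PD-1-Fc (median log2 fold change 0.92). Of the 32 under 50%, 24 were called higher (median 0.60). Across members, the mean level and the unique percentage were nearly unrelated (Spearman's rho 0.08 over 82 genes, which share libraries and are no replicates).

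Gene length moved with the fold change as well. Spearman's rho between length and the VHH-PD-1-Fc log2 fold change was −0.25 over the 87 members and −0.31 over all 13533 genes with a length. Members under 600 bases were called higher in 26 of 28 cases (median 0.98), those of 600 to under 900 bases in 28 of 35 (0.85), and those of 900 bases or more in 21 of 24 (0.76). Among other genes in those length classes, 30.7%, 23.6% and 8.78% were called higher, with medians of 0.16, −0.03 and −0.26. Within each class the members were therefore above the other genes. The class of 900 bases or more has no upper bound, so lengths within it need not be alike. With the length and GC trend removed in each library the members' median was 0.79.

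Members with and without a run of at least 8 pyrimidines near the start site were called at similar rates. Shorter runs, such as the 5 bases CTTCT of Rps16, counted as without it, and the search depended on the annotated start. These groups therefore do not separate members with and without a TOP tract. Under VHH-PD-1-Fc, 25 of 28 members with the run were called higher (median log2 fold change 0.90) and 31 of 35 without it (0.84). Under the dual construct, 25 of 28 with the run (0.87) and 31 of 35 without it (0.67) were called higher. Rpl7a and Rps10, whose tracts are printed above, were not called. With the ETS core CCGGAAG, 22 of 25 members were called higher (median 0.89), and without it 34 of 38 (0.86). Under the dual construct these counts were 23 of 25 (0.86) and 33 of 38 (0.72), and none of these differences was tested.

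The next comparison set the dual construct against Ctrl and so tested both arms at once. Of the 87 members, 73 were called higher and 0 lower by limma, where 15.1% of all genes were called higher. The median log2 fold change was 0.75, against −0.14 over all genes. In 78 members every treated library lay above every Ctrl library, as in 23% of all genes. The large subunit had 42 of 52 called higher (median 0.72) and the small subunit 31 of 35 (0.81). The 3 libraries of this group were more alike than those of any other, with a median SD over the members of 0.035 on the log2 scale, against 0.085 in Ctrl, 0.132 under VHH-OD-Fc and 0.187 under VHH-PD-1-Fc. With these 3 libraries averaged and counted as 1 sample, 47 members were called higher, and with quantile normalization 46.

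The smallest differences in this comparison were again in rows of low level or many copies, with a few abundant genes. Rpl4, a large subunit protein with a long loop reaching the peptide tunnel, read 817, 863 and 919 FPKM in Ctrl and 967, 957 and 952 under the dual construct. The libraries did not overlap, yet the log2 fold change of 0.15 was not called (limma adjusted p = 0.275). It turned to −0.42 (0.00515) under quantile normalization. Rps10 (−0.15), Rpl21 (−0.08), Rpl24 (−0.04), Rpl9 (0.05) and Rpl3l (0.57) also did not pass the test, and neither did Rpl30 (1.08) or Rps27a (0.42).

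Rpl39l, expressed mainly in the testis under normal conditions, was the member of largest log2 fold change under the dual construct. It read 0.572, 0.543 and 0.621 FPKM in Ctrl, 1.56, 0.722 and 1.26 under VHH-OD-Fc, 0.737, 2.02 and 0 under VHH-PD-1-Fc and 5.11, 4.51 and 4.24 under the dual construct. All dual-construct libraries were above all others, and the VHH-PD-1-Fc libraries were widely spread. The log2 fold change was 1.83 ± 0.31 (limma adjusted p = 0.00119) against Ctrl and 0.14 ± 0.31 (0.74) for VHH-PD-1-Fc. The first of these was lost with a pseudocount of 0.01 in place of 1 (0.122). Its level remained under 1% of Rpl39 in every library, with a highest value of 0.866%.

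**Figure D4:**
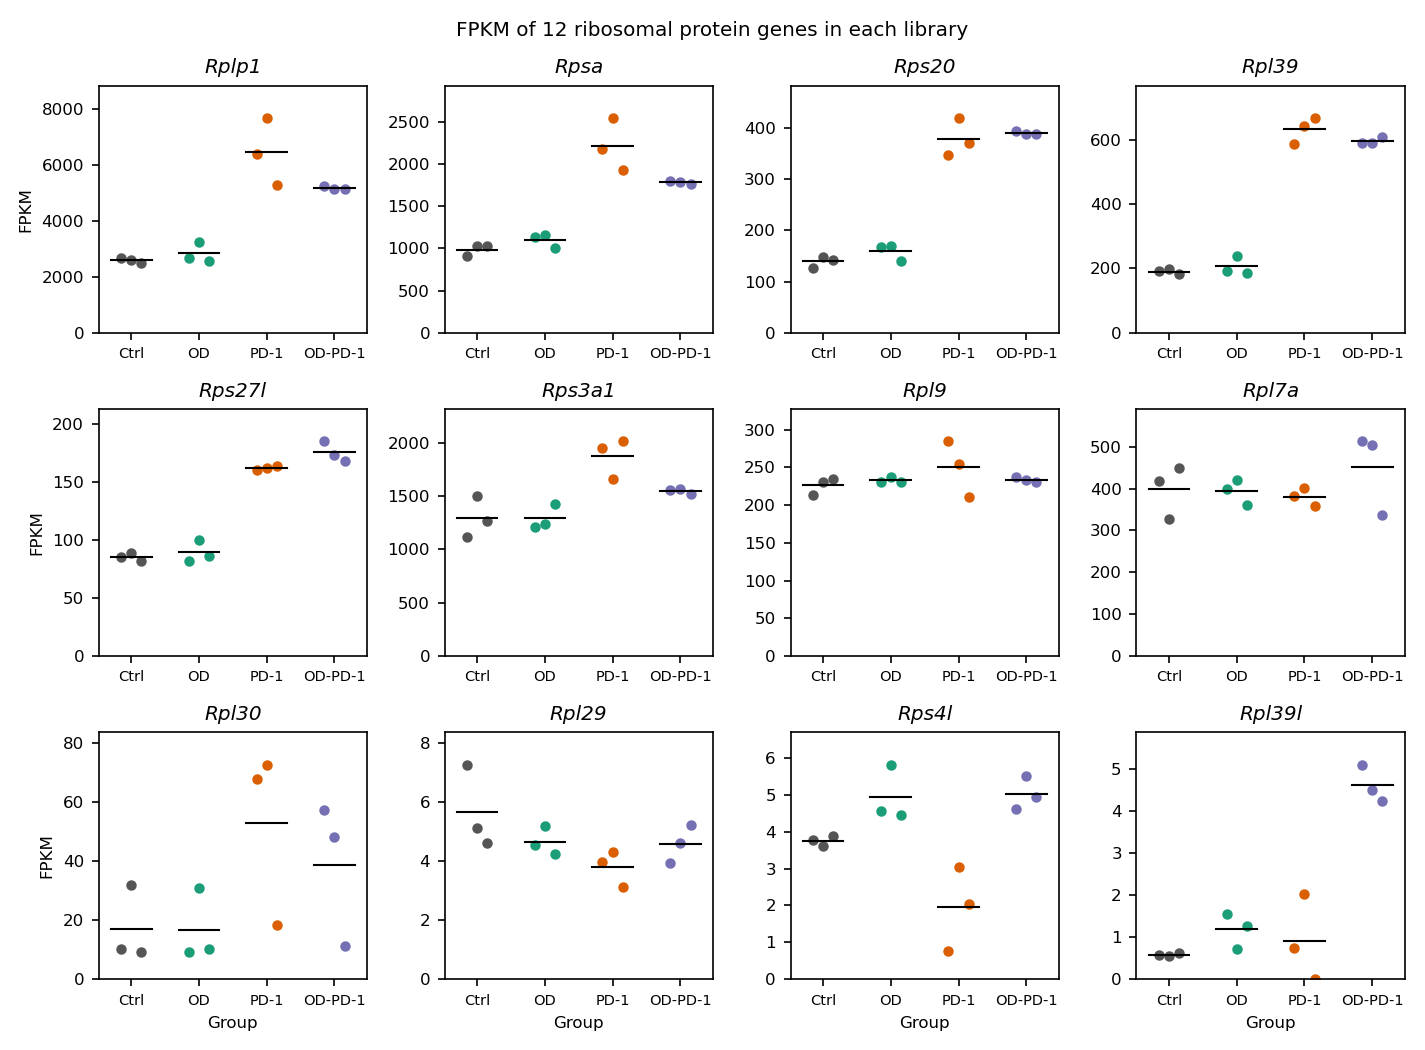
FPKM of 12 members, 1 point per library in the 4 treatment groups (OD is VHH-OD-Fc, PD-1 is VHH-PD-1-Fc and OD-PD-1 is VHH-OD-PD-1-Fc), with a bar at each group mean and a separate linear axis per gene. Rplp1, Rpsa, Rps20, Rpl39 and Rps27l separate libraries with and without the PD-1 arm, Rpl9 and Rpl7a do not, and Rpl39l is highest under VHH-OD-PD-1-Fc.

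VHH-OD-Fc against Ctrl showed no called member, here or in any alternative run. Of all genes, 0% were called by limma, and 449 genes, or 3.14%, had an unadjusted p under 0.05. Among the members, 3 did so, namely Rpl17, Rps12 and Rps14. The median log2 fold change was 0.11 over the members and −0.02 over all genes, and 76 members had a positive and 11 a negative value. In 13 members every VHH-OD-Fc library lay above every Ctrl library, where 3.5% of all genes did so, and in 2 every library lay below, where 6.7% did. Rps12, a small subunit protein, read 297, 330.4 and 314 FPKM in Ctrl and 380.1, 396 and 332 under VHH-OD-Fc, a log2 fold change of 0.23 (limma adjusted p = 1). Rps14 was at 0.27, Rpl37a at 0.20, Rpl29 at −0.22, Rps10 at −0.16, Rpl24 at −0.14 and Rpl7l1 at −0.11, and none passed the test. Without the second VHH-OD-Fc library, which also had the highest share, the members' median was 0.04.

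The PD-1 arm gave similar counts when set against VHH-OD-Fc. For the dual construct against VHH-OD-Fc, 68 members were called higher and 0 lower by limma, where 15.4% of all genes were called higher, with medians of 0.65 over the members and −0.11 over all genes. Rpl39 (log2 fold change 1.54, adjusted p = 1.69e-05), Rps20 (1.29, 4.08e-05), Rps15a (1.05, 5.48e-05) and Rps27l (0.97, 6.88e-05) had the smallest p-values. Rpl3l (−0.42, 0.511) and Rpl29 (−0.02, 0.925) were the members with negative values, and the first was called lower without the first VHH-OD-Fc library (−1.06, 0.0403). With the 3 dual-construct libraries counted as 1 sample, 30 members were called higher, and with quantile normalization 41.

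For VHH-PD-1-Fc against VHH-OD-Fc, 70 members were called higher and 1 lower by limma, where 14.2% of all genes were called higher and 28.4% lower. The medians were 0.77 over the members and −0.16 over all genes. Rpl39 (log2 fold change 1.62, adjusted p = 1.23e-05), Rps20 (1.24, 6.26e-05), Rps15a (1.06, 6.53e-05) and Rps27 (1.24, 7.47e-05) led, and Rps4l was the gene called lower. Rpl3l (−1.25, 0.058), Rpl29 (−0.24, 0.232) and Rpl39l (−0.31, 0.44) were not called. Rpl3l was called lower without the first VHH-OD-Fc library (−1.89, limma adjusted p = 0.00359), after rescaling to TPM (−1.96, 0.0451) and with an equal sum over other genes (0.0471). Rpl29 was called lower after rescaling to TPM (−0.49, 0.0315) and with the length and GC trend removed (−0.39, 0.0384). Rpl39l was called lower without the second VHH-PD-1-Fc library (−0.71, 0.0352), and without the 3 libraries that stood apart (−0.87, 0.0238). These comparisons and those with Ctrl share libraries, so their counts are not independent of each other. With quantile normalization 44 members were called higher.

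With the OD arm added to the PD-1 arm, 1 member was called. For the dual construct against VHH-PD-1-Fc, Rpl39l was called higher by limma (log2 fold change 1.69, adjusted p = 0.0416), where 0.538% of all genes were called higher, and no member was called lower. At an unadjusted p under 0.05 there were 15 members, and 2211 genes, or 15.5% of all. The Rpl39l call was lost under most other settings. With each library left out, the limma adjusted p ran from 0.00452 without the second VHH-PD-1-Fc library to 0.175 without the first dual-construct library. It was 0.187 with a pseudocount of 0.01. With the dual-construct libraries averaged the log2 fold change was 1.69. The median over the members was −0.07, against 0.04 over all genes, and 62 members had negative values. In 22 members every dual-construct library lay below every VHH-PD-1-Fc library, where 7.25% of all genes did so, and in 6 every library lay above, where 13.8% did.

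Those 22 included Rps28, Rps3a3, Rps21 and Rps4x. Rps28, a small protein of the small subunit, read 327, 336 and 296 FPKM under VHH-PD-1-Fc and 256, 225 and 249 under the dual construct, with Ctrl at 163, 177 and 173. Its log2 fold change between the constructs was −0.39 (limma adjusted p = 0.116). It was −0.30 (0.172) for Rps3a3, −0.37 (0.174) for Rps21 and −0.28 (0.188) for Rps4x. The members that lay above included Rps4l (1.11, 0.0591), Rpl3l (0.83, 0.451) and Rps6 (0.11, 0.537), the last being a known target of S6 kinase. A p that misses the threshold does not show that the constructs act alike.

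The difference from additivity takes the dual construct's change from Ctrl and subtracts the changes that VHH-OD-Fc and VHH-PD-1-Fc gave alone, at doses that were not matched. By limma 0 members were called, where 0.112% of all genes were. At an unadjusted p under 0.05 there were 11 members, and 11.9% of all genes. The median was −0.20 over the members and 0.06 over all genes, and 72 members had negative values. Rps14 (−0.50, adjusted p = 0.207), Rps4x (−0.45, 0.248), Rpl37a (−0.42, 0.26) and Rps28 (−0.47, 0.266) had the smallest p-values below 0. Rpl39l (1.24, 0.3), Rps4l (0.80, 0.376), Rpl29 (0.44, 0.467) and Rpl7a (0.23, 0.761) had those above. When 3 libraries that stood apart from their groups were left out together (the first of Ctrl and the second of each single-arm construct), the members' median was −0.04.

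Paralogs can replace their parent protein in part of the ribosomes of some tissues, and they did not all keep step with the parent. Rps27l, a p53-inducible paralog of Rps27, read 85.5, 88.3 and 81.9 FPKM in Ctrl, 81.5, 99.6 and 86.4 under VHH-OD-Fc, 160, 162 and 163 under VHH-PD-1-Fc and 185, 173 and 168 under the dual construct. Its log2 fold changes against Ctrl were 0.92 ± 0.09 (limma adjusted p = 6.6e-05) and 1.03 (3.7e-05). As a percentage of Rps27 it was 21.4 to 26.3 in Ctrl, 16.5 to 18.7 under VHH-PD-1-Fc and 21.9 to 23.1 under the dual construct, so all VHH-PD-1-Fc libraries were below Ctrl.

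Rpl22l1, a paralog of Rpl22, an RNA-binding protein of the large subunit, read 36.3, 52.3 and 45.7 FPKM in Ctrl, 86.0, 58.5 and 86.2 under VHH-PD-1-Fc and 60.0, 58.4 and 64.2 under the dual construct. Its log2 fold changes were 0.76 ± 0.16 (limma adjusted p = 0.0033) and 0.45 (0.043), the second being lost under many settings. Rpl22 rose by 0.66 under VHH-PD-1-Fc, and the paralog was 33.9% to 45.1% of the parent in Ctrl, 38.1% to 48.8% under VHH-PD-1-Fc and 32.4% to 36.1% under the dual construct. The Ctrl range overlapped both of the others.

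Rpl7l1, a paralog of Rpl7 found in ribosome precursors, read 26.9, 27.5 and 26.9 FPKM in Ctrl, 32.5, 39.7 and 30.8 under VHH-PD-1-Fc and 34.4, 33.4 and 33.3 under the dual construct. Its log2 fold changes were 0.32 (limma adjusted p = 0.015) and 0.31 (0.022), where Rpl7 rose by 0.91 under VHH-PD-1-Fc. Both calls of Rpl7l1 were lost after rescaling to TPM. Rpl10, whose paralog Rpl10l was not analysed here, rose by 0.92.

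Rps4l, which had no annotated protein-coding transcript, was 0.352% to 0.462% of Rps4x in Ctrl, 0.0422% to 0.155% under VHH-PD-1-Fc and 0.297% to 0.359% under the dual construct. Rpl3l, the skeletal and heart muscle paralog of Rpl3, read 0.0482, 1.14 and 0.169 FPKM in Ctrl, 0.129, 5.09 and 2.02 under VHH-OD-Fc, 0.107, 0.0419 and 0.342 under VHH-PD-1-Fc and 1.22, 1.10 and 0.854 under the dual construct. Its highest value fell in the second VHH-OD-Fc library, where the 5 skeletal muscle markers summed to 1987 FPKM, against 8.1 to 250 in Ctrl. The part of muscle tissue in that value was not tested. Rpl3 rose by 0.47 under VHH-PD-1-Fc and 0.29 (limma adjusted p = 0.044) under the dual construct. The latter call was lost under most other settings, including leaving out any 1 VHH-OD-Fc or dual-construct library or the third Ctrl library. The log2 fold change was 0.19 (0.153) without the first Ctrl library, 0.06 (0.64) after rescaling to TPM and −0.14 (0.321) under quantile normalization. The VHH-PD-1-Fc call was also lost after rescaling to TPM (0.25, limma adjusted p = 0.0759) and under quantile normalization (0.08, 0.553).

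Some ribosomal components outside the symbol rule were also higher. Rack1, a scaffold protein of the small subunit, was higher by 0.93 under VHH-PD-1-Fc (limma adjusted p = 7.22e-05), and Fau, a ubiquitin-like fusion with a small subunit protein, by 0.75 (0.000551). Rps27rt, a processed copy of Rps27, was higher by 1.01 (0.00104). Among the 123 tested pseudogene rows, 103 were called higher and 1 lower under VHH-PD-1-Fc (median 0.85), and 102 and 2 under the dual construct (median 0.90). The shares of all genes called higher were 14.6% and 15.1%.

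Of 19 other mRNAs with a TOP tract, 11 were called higher and 2 lower under VHH-PD-1-Fc (median log2 fold change 0.41), and 6 and 2 under the dual construct (0.28). Among all genes, 14.6% were called higher and 32.3% lower under VHH-PD-1-Fc, and 15.1% and 27.1% under the dual construct. After rescaling to TPM, 7 were called higher under VHH-PD-1-Fc (0.18), and 6 higher and 4 lower under the dual construct (0.046). With median-of-ratios scaling 14 and 10 were called higher (0.63 and 0.44), and the dual construct's median was 0.012 with quantile normalization. The difference between these mRNAs and the members was not tested. Tpt1, which encodes the translationally controlled tumour protein, was at 1148, 1461 and 1443 FPKM in Ctrl and at 2542, 3421 and 3212 under VHH-PD-1-Fc, without overlap (1.18, limma adjusted p = 0.000109). The initiation factor 3 subunits Eif3k (0.81) and Eif3f (0.76) were higher, whereas Eif2s3x, a subunit of the factor that delivers the initiator tRNA, fell by 0.997 on the log2 scale (7.21e-05). Of 26 initiation factors, 6 were called higher and 7 lower (median 0.10) under VHH-PD-1-Fc, and 9 and 4 under the dual construct (0.19). These 2 medians were below 0 after rescaling to TPM (−0.12 and −0.04). Eif3a, the largest subunit of initiation factor 3, was at 36.9, 38.6 and 36.2 FPKM in Ctrl and 15.3, 10.5 and 14.1 under VHH-PD-1-Fc (−1.44, 4.05e-05). Eif6, which keeps free large subunits from joining, was higher by 0.70, and Eif4g1, the cap-complex scaffold, was at −1.06.

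Many genes for building ribosomes were lower under VHH-PD-1-Fc, and fewer of them were under the dual construct. Of 34 ribosome assembly factors, 21 were called lower and 2 higher under VHH-PD-1-Fc (median −0.46), where 32.3% of all genes were called lower (median −0.19). Under the dual construct 12 were called lower and 3 higher (−0.26), where 27.1% of all genes were called lower (median −0.14). Under 5 other scalings and corrections, applied to the lists after the data were seen, the medians of the assembly factors were −0.70 to −0.25 under VHH-PD-1-Fc and −0.50 to −0.10 under the dual construct. The lowest came after rescaling to TPM, where the medians of all genes were −0.43 and −0.37. With median-of-ratios scaling, 15 were called lower under VHH-PD-1-Fc and 7 under the dual construct. With the length and GC trend removed, 9 were called lower and 4 higher under the dual construct. Ncl, nucleolin, an abundant nucleolar protein that acts on pre-ribosomal RNA, was at 93.7, 91.8 and 85.9 FPKM in Ctrl and 81.4, 86.0 and 88.9 under VHH-OD-Fc. It was at 39.3, 43.9 and 42.0 FPKM under VHH-PD-1-Fc and 47.4, 47.2 and 48.1 under the dual construct. The groups with and without the PD-1 arm did not overlap, and the log2 fold changes were −1.10 (limma adjusted p = 1.63e-05) and −0.91 (3.51e-05). Tsr1, needed for late maturation of the small subunit, was at −1.74 (0.000127) and −1.71 (0.000168). Nop10, a small protein of the complexes that make pseudouridine, was one of the few higher, at 0.96 (0.000142).

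Of 10 chaperones and importers of ribosomal proteins, 6 were called lower and 1 higher under both constructs (medians −0.50 and −0.30). Among all genes, 32.3% and 27.1% were called lower and 14.6% and 15.1% higher under these constructs. Under the other scalings and corrections the median was −0.73 to −0.16 for VHH-PD-1-Fc. For the dual construct, 3 were called lower and 1 higher with median-of-ratios scaling (−0.14), and 2 lower and 2 higher with the length and GC trend removed (0.0088). Ipo7, an importin, was at −1.11 (limma adjusted p = 0.000439), Sdad1 at −0.87, Ltv1 at −0.72 and Kpnb1 at −0.54 under VHH-PD-1-Fc. RNA polymerase I, which transcribes ribosomal RNA, had 1 of 11 genes called higher and 2 lower (median −0.01), with Polr1d at 0.61 (0.00142) and Taf1a at −0.62 (0.005). Under the dual construct 2 were called higher and 2 lower (0.10). Among 78 mitochondrial ribosomal protein genes, which serve a separate ribosome, 32 were called higher and 6 lower under VHH-PD-1-Fc (median 0.22), and 40 and 4 under the dual construct (0.30). After rescaling to TPM these counts were 19 and 17 (0.0078), and 21 and 15 (0.11). The RNA polymerase I median under VHH-PD-1-Fc was −0.24 after rescaling to TPM and 0.21 with median-of-ratios scaling.

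Among regulators of ribosomal protein expression, the mTORC1 pathway genes called went both ways. The MYC network genes called were all lower before other scalings were applied. The direction of the list medians depended on the scaling, except for the MYC list under VHH-PD-1-Fc. The median of the mTORC1 list under VHH-PD-1-Fc was −0.31 after rescaling to TPM and 0.09 with median-of-ratios scaling, and that of the MYC list under the dual construct was −0.30 and 0.08. Under VHH-PD-1-Fc the MYC list stayed below 0, at −0.49 after rescaling to TPM and −0.04 with median-of-ratios scaling. The medians of all genes in these settings were −0.43 and −0.01. Of 16 mTORC1 pathway genes, 3 were called higher and 5 lower under VHH-PD-1-Fc (median −0.09), and 3 and 3 under the dual construct (−0.03). Among all genes, 14.6% were called higher and 32.3% lower under VHH-PD-1-Fc, and 15.1% and 27.1% under the dual construct. Eif4ebp1, the translation repressor that mTORC1 inactivates, was higher by 0.36 (limma adjusted p = 0.014), and Larp4, an RNA-binding protein of the translation machinery, was at −0.64 (0.00852). Of 9 genes of the MYC network, 0 were called higher and 3 lower under VHH-PD-1-Fc (median −0.25, against −0.19 over all genes), and 0 and 2 under the dual construct (−0.07). For both lists the share called lower under VHH-PD-1-Fc was near that of all genes. Myc, a transcription factor for ribosome genes, was at 62.1, 75.5 and 60.1 FPKM in Ctrl, 59.6, 33.4 and 32.7 under VHH-PD-1-Fc and 64.1, 60.7 and 63.1 under the dual construct. The first VHH-PD-1-Fc library lay close to Ctrl and the other 2 well below. The log2 fold changes were −0.69 (0.017) and −0.07 (0.815). Transcript levels do not report mTORC1 activity or translation.

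**Figure D5:**
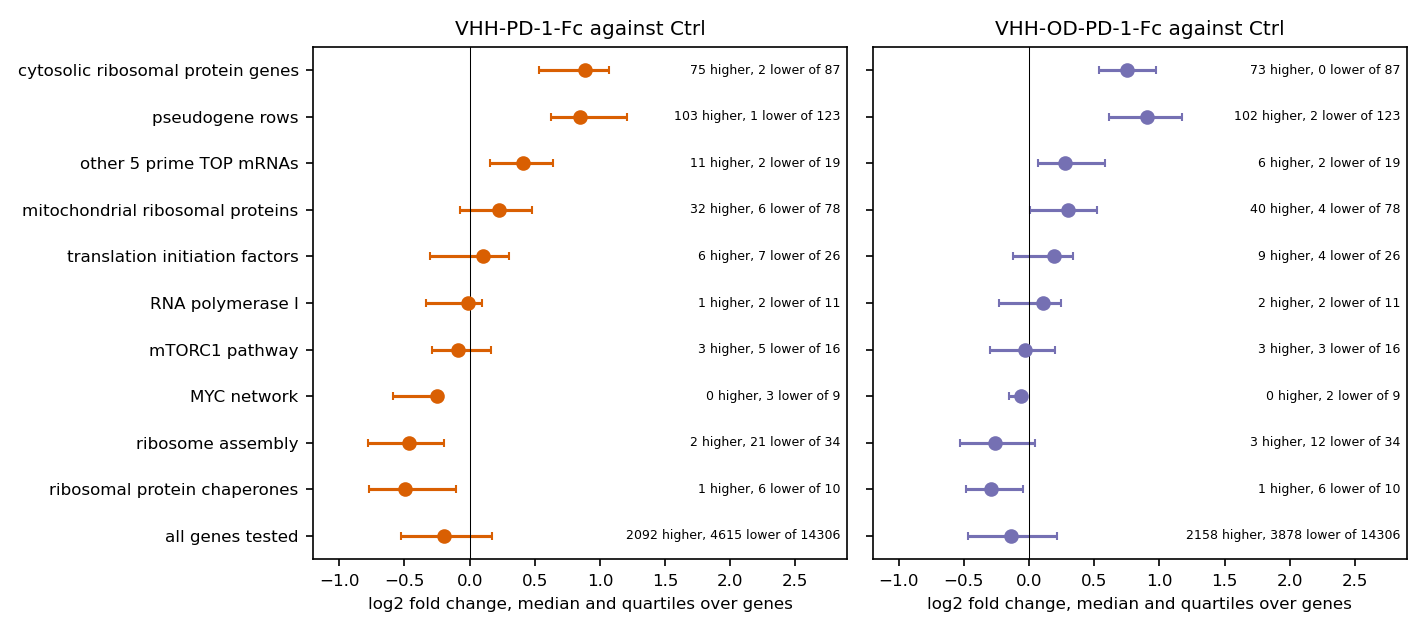
Median (point) and quartiles (bar) of the log2 fold change over the tested genes of each list, for VHH-PD-1-Fc (left) and the dual construct (right) against Ctrl, with the number called higher and lower. Cytosolic ribosomal protein genes (medians 0.89 and 0.75) and their pseudogene rows lie highest, and ribosome assembly factors and chaperones lie below 0.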

How the data were processed

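RNA-seq (poly(A) selection, paired reads of 150 bases, per the labels' protocols) was measured in 12 tumour libraries. The deposited table holds FPKM values from the authors, and the submitters' processing notes name fastp 0.22.0, HISAT2 2.2.1 and the human build GRCh38, although the gene symbols are those of mouse. The FPKM tool, annotation, strandedness and counting of reads with several matches were not given in the sources used here. The series design text describes another experiment and was not used.

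Counts were not recovered. Low values fell within 0.1 of whole multiples of a smallest step in 91.6% to 94.1% of cases, which corresponds to 44500000 to 62000000 counted fragments or reads per library. Genes with at least 1 FPKM in at least 3 of 12 libraries were tested on log2(FPKM + 1) with limma 3.58.1 in R 4.3.3 (all libraries in 1 fit, trended variance, two-sided, 7 contrasts, Benjamini-Hochberg over all genes tested), after the script was tested on simulated data. Adding 1 makes fold changes of low genes smaller than they are. Members, lists and tests were chosen with earlier results of these data known. Named were the 8 members of largest and the 8 of smallest fold change against Ctrl for each construct with the PD-1 arm, those called in neither, the 4 of smallest p per direction in the other contrasts, the 5 most abundant, paralogs with parents, and up to 4 genes of smallest p per list. Values are printed for a choice of these, and some results are not reported here. Gene lengths and copies came from the GENCODE mouse annotation, promoters from RefSeq.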

Additional observations from a re-analysis of the deposited data

How the results depend on the processing

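The members' medians kept their direction in every alternative for the comparisons of a PD-1 arm with Ctrl or VHH-OD-Fc. The median log2 fold changes in 4 comparisons, first VHH-PD-1-Fc against Ctrl, then the dual construct against Ctrl, then the dual construct against VHH-OD-Fc, and last VHH-PD-1-Fc against VHH-OD-Fc, were 0.66, 0.53, 0.43 and 0.55 after rescaling to TPM. They were 1.10, 0.91, 0.77 and 0.96 with median-of-ratios scaling, 0.41, 0.35, 0.23 and 0.32 with quantile normalization, and 0.76, 0.59, 0.49 and 0.63 with an equal sum over other genes. With the length and GC trend removed the first 3 were 0.79, 0.65 and 0.53. Without the 3 libraries that stood apart, the first was 0.79, and leaving out each library in turn gave 0.79 to 0.93. The median of all genes for VHH-PD-1-Fc against Ctrl was −0.19, −0.43 with TPM, −0.01 with median of ratios and −0.03 with quantile normalization. The members exceeded it by 1.08, 1.09, 1.11 and 0.44 in that order.

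Counts of members called higher fell with quantile normalization to 46, 41 and 44 in the last 3 of these comparisons, and to 47 and 30 in the comparisons of the dual construct with Ctrl and VHH-OD-Fc when its libraries were averaged. Leaving out each library gave 73 to 78 for VHH-PD-1-Fc and 69 to 75 for the dual construct against Ctrl. For the dual construct against VHH-PD-1-Fc, where 1 member was called, 0 were called with either other pseudocount, either other filter, TPM, median of ratios, quantile normalization, the length and GC trend removed, quality weights, only the groups compared, averaging or the replicate block. That count was 3 without the 3 libraries apart, and 0 to 3 with each library left out (0 without Ctrl library 2 or 3, any VHH-OD-Fc or any dual-construct library, 2 without VHH-PD-1-Fc library 1 or 2, and 3 without library 3 of that group). The difference from additivity had a median of −0.30 with median of ratios and −0.039 without the 3 libraries.

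Whether replicate numbers pair the libraries is not stated, and the values gave no clear sign of pairing. Deviations from group means of same-numbered libraries had correlations of −0.15 to 0.18 (median 0.0025 over 18 pairs). For libraries of different number they were −0.46 to 0.43 (median −0.0033 over 36 pairs). With 3 libraries per group this cannot exclude pairing. With the replicate block, 78 members were called higher under VHH-PD-1-Fc and 72 under the dual construct. The block also called Rpl30 (limma adjusted p = 0.0167) and Rps27a (0.0474) higher under VHH-PD-1-Fc and Rpl3l lower against VHH-OD-Fc (0.0457), and lost Rpl3 under the dual construct (0.0707). The shares in Ctrl, the OD-only, the PD-1-only and the dual group were 10.6%, 11.2%, 13.9% and 12.9% with quantile normalization, and 10.96%, 11.9%, 18.5% and 16.3% of protein-coding FPKM alone. Quantile normalization also reversed Rpl4 (−0.42) and Rpl3 (−0.14) under the dual construct and Rps3a1 (−0.11) under VHH-PD-1-Fc. The cause was not tested. Depth limits rows such as Rpl24, with 40.2 to 82.4 counted units per library.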
